A study of Mus musculus with 14 samples.

Results

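The 40 genes described here encode proteins that repair DNA or signal DNA damage, taken by name from a list of homologous recombination, Fanconi anemia, end resection, mismatch repair, end joining, excision repair and checkpoint genes. All 40 were found among the 38926 gene entries of the LSK and MyePro count tables by symbol and among the 39179 gene entries of the LT-HSC count tables by Ensembl gene ID. The list was drawn up by function, with earlier results of these data known. The question of each comparison is whether RNA levels of these genes differed between Dpy30 KO and control blood-forming cells of the mouse. Dpy30 encodes a core subunit of the enzyme complexes that methylate lysine 4 of histone H3.

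The 8 RNA-seq libraries came from donor bone marrow cells (CD45.2+) that had been mixed with C57Bl/6J competitor cells (CD45.1+) and transplanted into irradiated CD45.1+ mice. Control donors were Mx1-Cre; Dpy30F/+ and KO donors were Mx1-Cre; Dpy30F/-, where F is the conditional allele, so every donor carried Mx1-Cre and at least 1 F allele and the controls kept a wild-type allele. Mx1-Cre is switched on by interferon and by pIpC, a synthetic double-stranded RNA, and is active in blood-forming cells and in other tissues. All recipients of both genotypes received pIpC (7.5 µg/g, 4 injections from 7 weeks after transplantation), and marrow was taken 2 weeks after the last injection, so no group was free of pIpC, irradiation or transplantation. The age of the mice is not given in the labels for these samples. LSK cells are lineage-negative, Sca1-positive, Kit-positive cells, a population of stem cells and early progenitors. MyePro cells are called by that name in the labels, where the name is read here as myeloid progenitors and no gate is given. LSK and MyePro had 1 library per genotype, each from 2 to 3 pooled mice, and no RNA amplification. LT-HSC, the long-term haematopoietic stem cells, had 2 control and 2 KO libraries, 1 of each genotype from each of 2 transplants, each from 7 to 9 pooled mice and with amplified RNA. LSK and MyePro therefore have no replicate check and no test, and LT-HSC replicates are pools of mice.

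Gene counts per library ran from 6130320 (KO LSK) to 20820762 (control MyePro) without amplification, and from 38060087 to 85499797 in LT-HSC, where mitochondrial ribosomal RNA took 45.1% to 62.4%. The 40 genes together held 25572 counts in control LSK, 9313 in KO LSK, 36493 in control MyePro and 13956 in KO MyePro, and 37699 to 59067 in each LT-HSC library. Dpy30 itself was at 78.0 CPM in control against 42.4 CPM in KO LSK, at 113 and 51.9 CPM in MyePro, and at 12.9 and 8.43 CPM in control against 14.1 and 4.67 CPM in KO LT-HSC 1 and 2. The 2 libraries labelled KO LT-HSC thus stood on both sides of the controls, and how far the counted reads cover the deleted stretch is not given. CPM is a gene's count scaled to a library of 1000000 gene counts, after TMM scaling, which corrects for differences in RNA composition between libraries. Kit, a defining gene of the sort, was at 491 and 393 CPM in control and KO LSK and at 109 to 237 CPM in the 4 LT-HSC libraries. Ly6a, which encodes Sca1, was at 31.5 and 62.2 CPM in control and KO LSK and at 4.76 and 11.5 CPM in MyePro. Of 8 listed genes of LSK and stem cell identity, Kit and Ly6a among them, 2 were lower by at least 2-fold in KO LSK and 0 higher. In MyePro, 7 of them averaged 5 CPM or more, of which 3 were higher by 2-fold in KO and 1 lower.

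Homologous recombination repairs a DNA double-strand break by copying an intact sister chromatid. The MRE11, RAD50 and NBN complex opens the break, EXO1 and other nucleases trim the ends, BRCA1, PALB2 and BRCA2 prepare the exposed strand for pairing, and RAD54 proteins help that strand invade its partner. The Fanconi anemia proteins unhook crosslinks between the strands, and patients who lack them develop bone marrow failure, because blood stem cells depend on this pathway. End joining, led by the Ku proteins XRCC5 and XRCC6 and by DNA-PKcs, reseals breaks without a template. ATM and ATR are the kinases that sense damage and stalled replication, and CHEK1 passes the signal of ATR to the cell cycle. Many of these genes are transcribed most strongly in dividing cells.

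In MyePro, 33 of the 40 repair genes were below control in the KO library and 7 were above, with a median log2 ratio of -0.65. Over the 10245 genes that averaged 5 CPM or more, 5632 were below control and 4613 above, with a median of -0.08. The 8 repair genes lower by at least 2-fold were Rad54l, Fanca, Fancd2, Rad50, Exo1, Atm, Chek1 and Xrcc5. They act in strand invasion, crosslink repair, end processing, damage signalling and end joining. No repair gene was higher by 2-fold. Of all genes, 7.91% were lower and 11.3% higher by 2-fold. At 1.5-fold, 23 repair genes were lower and 1, Rad51c, was higher, where 20.5% of all genes were lower and 19.6% higher. The summed level of the 40 genes was 1829 CPM in control against 1230 CPM in KO MyePro.

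In LSK the deficit was smaller. Of 39 repair genes that reached a mean of 5 CPM, 31 were below control and 8 above, with a median log2 ratio of -0.30. Over all 10311 genes, 5513 were below control and 4798 above, with a median of -0.04. No repair gene was past 2-fold in either direction, where 5.38% of all genes were lower and 4.98% higher. At 1.5-fold, 7 were lower, which were Brca1, Bard1, Palb2, Fancd2, Nbn, Atm and Chek1, and none was higher, against 12.6% and 11.1% of all genes. The summed level of the 40 genes was 1736 CPM in control against 1409 CPM in KO LSK. Scaled to library totals instead of by TMM, the median over all LSK genes moved from -0.04 to 0.09 and the split of all genes past 2-fold from 555 lower and 514 higher to 457 lower and 648 higher. The median of the repair genes was then -0.17, with 26 of 39 below control.

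Each ratio compares 1 library with 1 library. Intervals below are 95% Clopper-Pearson intervals from the read counts of both libraries and cover counting error only, not differences between pools of mice. By these intervals, 21 of the 40 genes lay below control in LSK and 30 in MyePro, with no such count made over all genes. Genes above control by interval were Rad51c and Fancl in LSK and Rad51c and Xpc in MyePro. Such intervals narrow as reads increase, and the 40 genes held more reads in MyePro. The counts by interval are therefore not comparable between LSK and MyePro. Without the count over all genes they do not set the repair genes apart. All 21 genes below control in LSK by interval were also below control in MyePro by interval, and 29 of 40 had the lower KO ratio in MyePro. Across the 40 genes the LSK and MyePro ratios had a Pearson r of 0.77, given as a description. In bulk RNA, fewer cells of a type that holds these transcripts and less RNA of them per cell cannot be told apart.

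**Figure D1:**
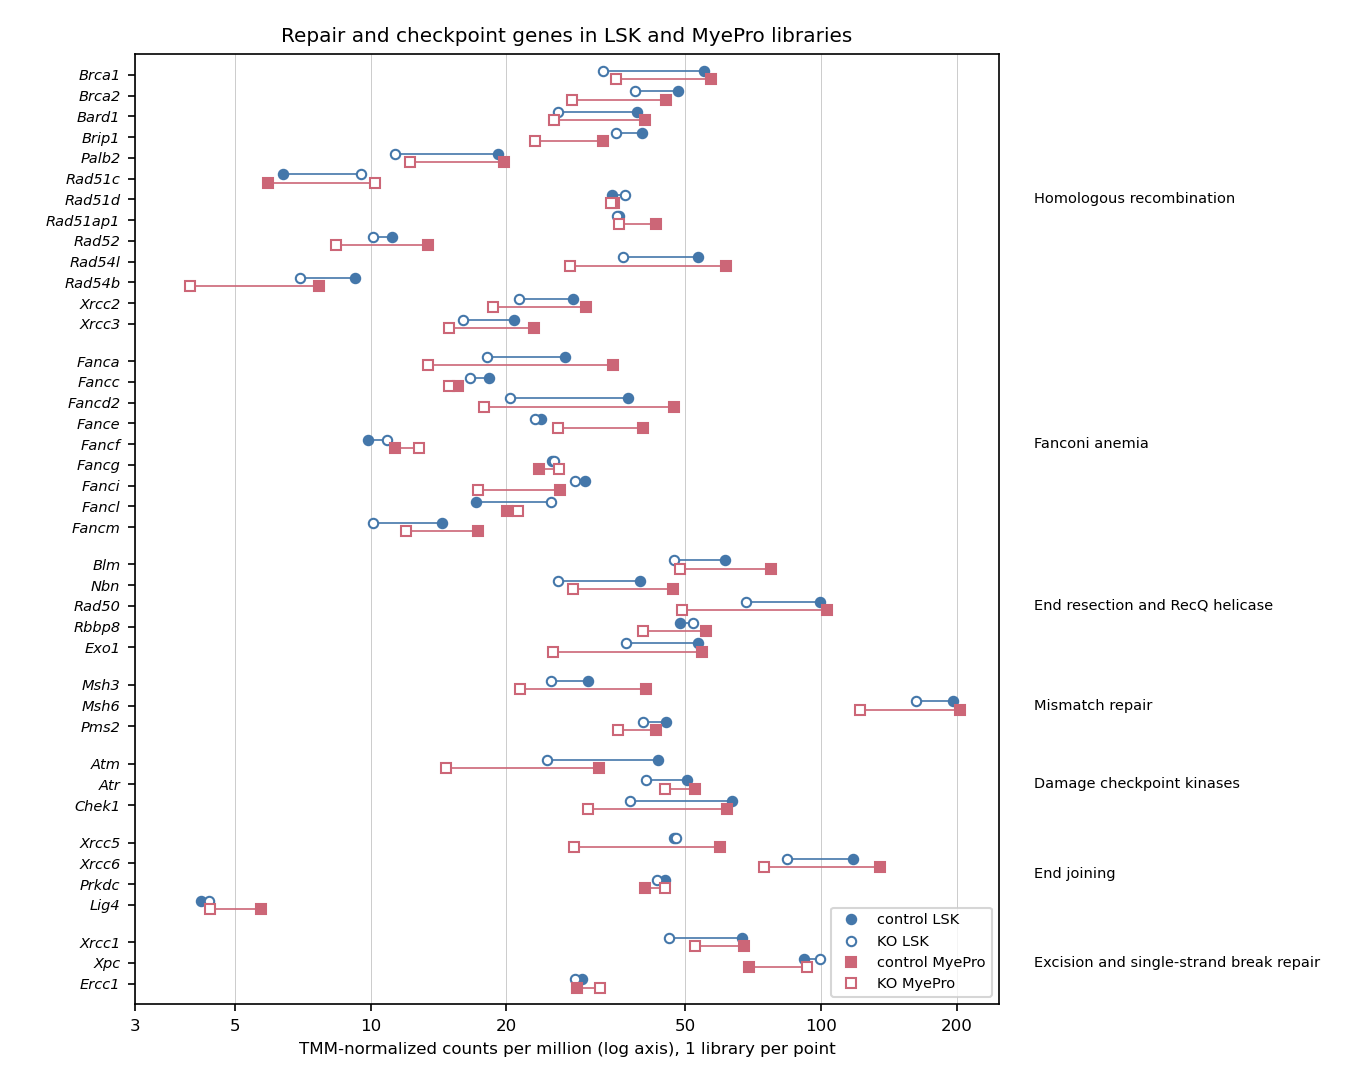
Level of each of the 40 genes in the 4 LSK and MyePro libraries, in TMM-normalized CPM on a log axis, with 1 point per library. KO points lie left of control points for 33 genes in MyePro, and the reverse is seen for Rad51c, Xpc, Fancl, Fancf and Fancg in both populations.

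In homologous recombination, 12 of 13 genes were below control in KO MyePro and 11 of 13 in KO LSK, with medians of -0.67 and -0.37. Brca1, which directs a break toward recombination, was at 54.9 CPM in control against 32.8 CPM in KO LSK, and at 56.9 and 35.1 CPM in MyePro. Its log2 ratio was -0.74 (95% interval -0.97 to -0.53) in LSK and -0.69 (-0.87 to -0.53) in MyePro, a deficit of much the same size in both populations. Palb2, the bridge between BRCA1 and BRCA2, stood at 19.1 and 11.3 CPM in LSK and at 19.8 and 12.3 CPM in MyePro, so its KO level was 59.2% and 61.9% of control. Bard1, the ring-finger partner of BRCA1, went from 39.1 to 26.0 CPM in LSK and from 40.7 to 25.5 CPM in MyePro between control and KO. These 3 partners in 1 complex therefore had KO levels between 59.2% and 66.5% of control in both populations.

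Brca2, which acts with PALB2 in recombination, and Rad54l, a motor protein of strand invasion, differed more between the populations. Brca2 was at 48.1 CPM in control against 38.7 CPM in KO LSK, a log2 ratio of -0.31 (-0.52 to -0.10), and at 45.2 and 28.0 CPM in MyePro, a log2 ratio of -0.69 (-0.88 to -0.50). Rad54l was at 53.4 and 36.3 CPM in LSK and at 61.6 and 27.8 CPM in MyePro, where its log2 ratio was -1.14 (-1.33 to -0.97), the lowest of the recombination genes. Both had a deficit in LSK and a deeper one in MyePro. Its relative Rad54b had few reads, at 7.67 CPM in control against 3.97 CPM in KO MyePro, with a log2 ratio of -0.92. Rad52, Xrcc2 and Xrcc3 had MyePro log2 ratios of -0.67, -0.68 and -0.62.

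A few recombination genes did not follow. Rad51c, which acts in strand exchange, was at 6.38 CPM in control against 9.53 CPM in KO LSK, and at 5.91 and 10.2 CPM in MyePro. It was the highest of the 40 genes by ratio in both populations, with log2 ratios of 0.57 (0.09 to 1.05) and 0.78 (0.41 to 1.17) that rest on 63 and 116 reads in the KO libraries. Rad51d, which acts in the same step, stood at 34.4 and 36.8 CPM in LSK and at 34.8 and 34.2 CPM in MyePro. Recombination genes thus lay on both sides of control.

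Among the 9 Fanconi anemia genes, 4 were lower by at least 1.5-fold in KO MyePro and 1 in KO LSK, where 20.5% and 12.6% of all genes were, and the group divided by gene. Fancd2, the protein that is tagged with ubiquitin when a crosslink is met, had the lowest ratio of all 40 genes in both populations. It was at 37.2 CPM in control against 20.4 CPM in KO LSK, a log2 ratio of -0.86 (-1.15 to -0.59). In MyePro it was at 47.1 and 17.9 CPM, a log2 ratio of -1.39 (-1.62 to -1.18), or 38.0% of control. Fanca, a scaffold of the core complex that tags FANCD2, was next in MyePro, at 34.5 CPM in control against 13.4 CPM in KO, a log2 ratio of -1.36 (-1.63 to -1.11), after 27 and 18.2 CPM in LSK. Fanci, the binding partner of FANCD2, was nearly level in LSK, at 29.9 and 28.4 CPM, and at 26.4 and 17.3 CPM in MyePro. Fance showed the same, with 23.8 and 23.1 CPM in LSK and 40.2 and 26.1 CPM in MyePro.

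Fancl, Fancf and Fancg were not below control. Fancl, the ligase that attaches ubiquitin, was at 17.2 CPM in control against 25.1 CPM in KO LSK, a log2 ratio of 0.54 (0.26 to 0.84), and at 20.1 and 21.2 CPM in MyePro, 0.08 (-0.16 to 0.31). Fancf, an adaptor of the core complex, was at 9.85 and 10.9 CPM in LSK and at 11.3 and 12.8 CPM in MyePro, and both of its intervals, -0.28 to 0.56 and -0.14 to 0.48, include 0. Fancg was at 25.3 and 25.6 CPM in LSK and at 23.7 and 26.2 CPM in MyePro. Fancm, a DNA translocase that anchors the core complex, was at 14.4 and 10.1 CPM in LSK and at 17.3 and 12.0 CPM in MyePro, with intervals of -0.92 to -0.10 and -0.83 to -0.24. Fancc was at 18.3 and 16.6 CPM in LSK and at 15.6 and 14.9 CPM in MyePro, with both intervals across 0. KO levels in MyePro were therefore 38.0% of control for Fancd2, 38.8% for Fanca, 64.9% for Fance and 65.6% for Fanci. They were 69.4% for Fancm, 95.3% for Fancc and between 106% and 113% for Fancl, Fancg and Fancf.

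All 5 end resection and RecQ helicase genes were below control in KO MyePro, with a median of -0.73. Rad50, the arm of the complex that holds broken ends, was at 99.3 CPM in control against 68.1 CPM in KO LSK, and at 103 and 49.1 CPM in MyePro. Its log2 ratios were -0.54 (-0.70 to -0.39) and -1.06 (-1.20 to -0.93). Nbn, its partner in that complex, was at 39.6 and 26.0 CPM in LSK and at 46.9 and 28.1 CPM in MyePro. Exo1, a nuclease that trims DNA ends, was at 53.3 and 36.9 CPM in LSK and at 54.5 and 25.4 CPM in MyePro, where the log2 ratio was -1.10 (-1.29 to -0.91). Rbbp8, whose product starts resection, had log2 ratios on both sides of 0, at 0.09 in LSK and -0.46 in MyePro. Blm, a helicase that undoes recombination intermediates, had log2 ratios of -0.37 and -0.67.

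The 3 mismatch repair genes were below control in both populations without reaching 2-fold. Msh6, which recognises mispaired bases, was at 196 CPM in control against 162 CPM in KO LSK, a log2 ratio of -0.27 (-0.38 to -0.17). In MyePro it was at 204 and 122 CPM, a log2 ratio of -0.74 (-0.83 to -0.65). Msh3, which recognises longer loops, was at 40.8 and 21.5 CPM in MyePro, a log2 ratio of -0.92, and Pms2, a nuclease of mismatch repair, was the least shifted at -0.28. In LSK these 3 genes lay between -0.27 and -0.17. The deficit was larger in MyePro for Msh6 and Msh3. For Pms2 the interval was -0.38 to 0.03 in LSK, which includes 0, and -0.46 to -0.11 in MyePro, so the intervals overlapped.

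Of the 3 checkpoint kinases, Atm and Chek1 were the lowest in both populations, and Atr had a smaller deficit. Atm was at 43.5 CPM in control against 24.7 CPM in KO LSK, a log2 ratio of -0.82 (-1.08 to -0.57). In MyePro Atm was at 32.1 and 14.7 CPM, a log2 ratio of -1.12 (-1.38 to -0.88). Chek1 was at 63.3 and 37.7 CPM in LSK, a log2 ratio of -0.75 (-0.96 to -0.55), and at 61.8 and 30.3 CPM in MyePro, -1.02 (-1.20 to -0.85). KO levels of both kinases were thus 56.6% and 59.5% of control in LSK and 45.9% and 49.1% in MyePro. Atr, the kinase upstream of CHEK1, was at 50.4 and 40.8 CPM in LSK and at 52.6 and 45.1 CPM in MyePro, with log2 ratios of -0.30 (-0.51 to -0.10) and -0.22 (-0.37 to -0.07).

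In end joining, the Ku genes and the kinase gene that Ku recruits went apart. Xrcc5, which encodes Ku80, was level in LSK at 47.1 and 47.6 CPM, with a log2 ratio of 0.02 (-0.18 to 0.21). In MyePro it was at 59.5 CPM in control against 28.3 CPM in KO, a log2 ratio of -1.07 (-1.26 to -0.89). No other gene past 2-fold in MyePro had a ratio at 0 or above in LSK. Xrcc6, which encodes Ku70, was at 118 and 84.1 CPM in LSK and at 135 and 74.8 CPM in MyePro, with log2 ratios of -0.49 (-0.63 to -0.35) and -0.85 (-0.97 to -0.74). Prkdc, which encodes DNA-PKcs, was at 45.1 and 43.3 CPM in LSK and at 40.7 and 45.0 CPM in MyePro. Lig4, the ligase of end joining, had few reads, with 4.21 and 4.39 CPM in LSK and 5.71 and 4.41 CPM in MyePro.

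Of the 3 excision and single-strand break repair genes, Xpc and Ercc1 were near or above control and Xrcc1 was below. Xpc, the damage sensor of nucleotide excision repair, was at 91.6 CPM in control against 99.5 CPM in KO LSK, and at 69.3 and 93.1 CPM in MyePro, a log2 ratio of 0.42 (0.31 to 0.54). Ercc1, part of the nuclease that cuts beside the damage, was at 29.5 and 28.4 CPM in LSK and at 28.7 and 32.3 CPM in MyePro. Xrcc1, the scaffold of single-strand break repair, was at 66.9 and 46.0 CPM in LSK, a log2 ratio of -0.54 (-0.73 to -0.35), and at 67.5 and 52.5 CPM in MyePro, -0.36 (-0.51 to -0.22). None of the 3 was past 1.5-fold in either population. In KO MyePro Xpc was above control by interval, and the log2 ratio of Ercc1, 0.17 (-0.02 to 0.36), had an interval that includes 0.

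**Figure D2:**
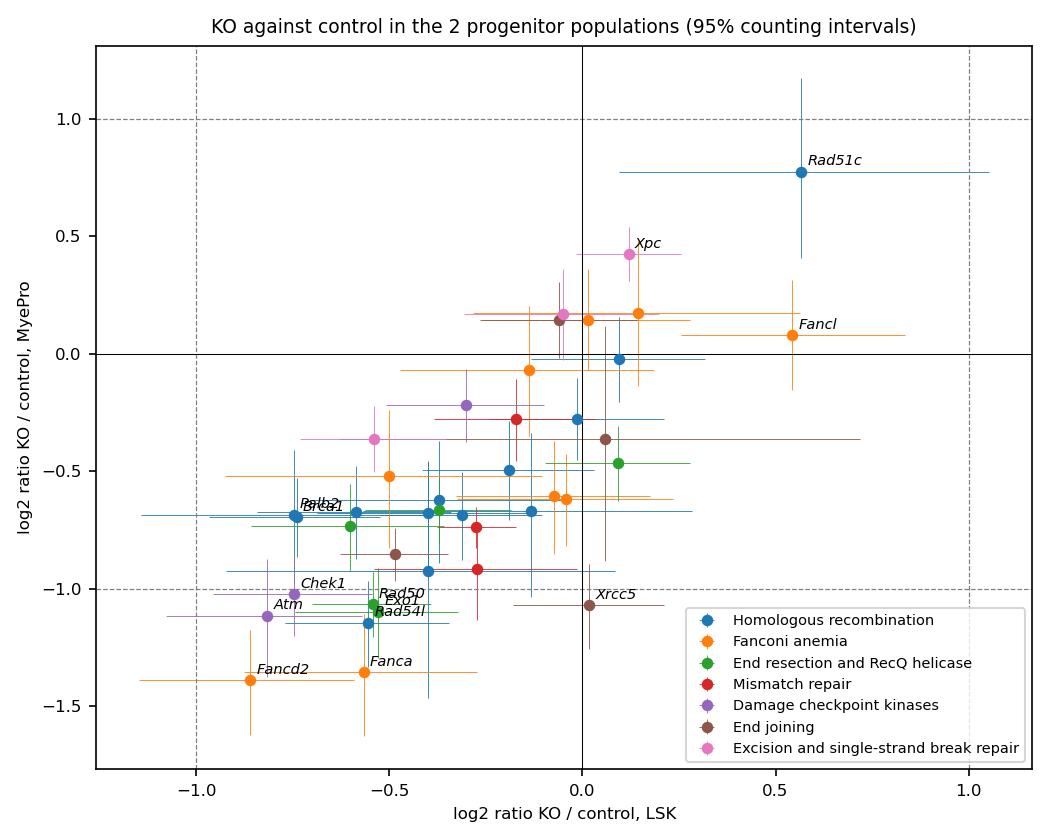
Log2 ratio of KO to control in LSK (horizontal axis) and MyePro (vertical axis) for the 40 genes, 1 point per gene coloured by role, with 95% counting intervals. Fancd2 lies lowest on both axes, Rad51c highest on both, and Xrcc5 sits at 0.02 in LSK and at -1.07 in MyePro.

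The counting does not state whether strand was used, so reads from overlapping genes could be shared. By the RefSeq annotation of GRCm38.p6, the spans of 22 of the 40 genes overlap another gene, and those of 14 overlap a protein-coding one. Rad54l overlaps Lrrc41, Fanca overlaps Zfp276, Fancd2 overlaps Fancd2os, and Fancf lies within the span of Gas2. Brca1 (chr11:101488761-101551955), Atm (chr9:53437122-53536828), Chek1 (chr9:36708482-36726658), Xrcc5 (chr1:72307417-72394953) and Rad50 (chr11:53649519-53707319) overlap no other annotated gene.

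Because many of these genes were lower together, their promoter windows were searched for short words. RefSeq promoter sequences of GRCm38.p6 were found for 30 of the 40 genes, in 33 windows that cover the 250 bases upstream of a gene start listed there. The word TTTCCCGC, an E2F-type word named for factors that drive S-phase genes, was found on either strand in 4 windows (12.1%), against 0.895% of all 32851 windows. The related word TTTGGCGC was found in 1 window (3.03%, against 0.417%), and either word in 5 (15.2%, against 1.3%). The word CCAAT, which the factor NF-Y recognises, was found in 17 windows (51.5%, against 33.8%). TTTGAA, a cell cycle word, was in 1 (3.03%, against 16% of all), and CACGTG, an E-box, in 1 (3.03%, against 6.02%). None of the searched words contains another, and a word found is a match of letters in this window and not a site shown to be bound.

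The 5 windows with an E2F-type word are shown as the 60 bases around it, since an E2F-type word was the searched word whose share exceeded that of all windows by the largest ratio. Of these genes, Brca2, Bard1, Xrcc6 and Msh3 were below control in KO MyePro by interval and Fancg was not, where 30 of all 40 genes were below. The stretches of Brca2, Xrcc6 and Fancg lie within the annotated gene spans, upstream of a start listed inside the span. Those spans are chr5:150522297-150570147, chr15:81987833-82040085 and chr4:43002337-43010567. Each stretch is written 5′ to 3′ on the strand of its gene in GRCm38.p6, and capitals mark the word, in either orientation.
Brca2, chr5:150522427-150522486, plus strand: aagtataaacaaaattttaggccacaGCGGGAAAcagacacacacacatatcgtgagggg
Bard1, chr1:71103148-71103207, minus strand: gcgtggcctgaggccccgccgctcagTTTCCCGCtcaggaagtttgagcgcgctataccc
Xrcc6, chr15:82016297-82016356, plus strand: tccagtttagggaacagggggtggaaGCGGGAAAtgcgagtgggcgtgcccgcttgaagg
Msh3, chr13:92355172-92355231, minus strand: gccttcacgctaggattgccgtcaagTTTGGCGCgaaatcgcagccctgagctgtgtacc
Fancg, chr4:43010320-43010379, minus strand: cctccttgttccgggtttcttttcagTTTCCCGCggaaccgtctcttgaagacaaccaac

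Whole windows of 250 bases are shown for 5 of the genes that were lower by 2-fold in KO MyePro, of which none held an E2F-type word. Capitals mark CCAAT in either orientation and, in Xrcc5, CACGTG as well.
Rad54l, chr4:116123691-116123940, minus strand: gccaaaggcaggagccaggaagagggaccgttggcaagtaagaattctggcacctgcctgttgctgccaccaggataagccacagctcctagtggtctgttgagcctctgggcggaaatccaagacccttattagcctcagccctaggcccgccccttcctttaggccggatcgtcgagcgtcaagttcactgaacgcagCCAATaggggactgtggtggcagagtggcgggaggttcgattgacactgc
Fanca, chr8:123318577-123318826, minus strand: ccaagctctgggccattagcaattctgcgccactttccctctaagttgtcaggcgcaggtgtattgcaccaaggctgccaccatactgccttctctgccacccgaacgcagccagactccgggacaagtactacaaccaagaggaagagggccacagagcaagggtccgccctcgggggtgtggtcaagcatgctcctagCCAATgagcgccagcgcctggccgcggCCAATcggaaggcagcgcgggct
Atm, chr9:53536672-53536921, minus strand: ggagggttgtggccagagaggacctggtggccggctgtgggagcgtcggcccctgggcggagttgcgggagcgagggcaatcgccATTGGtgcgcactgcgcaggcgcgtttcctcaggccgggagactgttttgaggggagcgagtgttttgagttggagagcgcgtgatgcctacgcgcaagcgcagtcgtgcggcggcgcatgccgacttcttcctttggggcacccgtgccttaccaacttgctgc
Chek1, chr9:36726659-36726908, minus strand: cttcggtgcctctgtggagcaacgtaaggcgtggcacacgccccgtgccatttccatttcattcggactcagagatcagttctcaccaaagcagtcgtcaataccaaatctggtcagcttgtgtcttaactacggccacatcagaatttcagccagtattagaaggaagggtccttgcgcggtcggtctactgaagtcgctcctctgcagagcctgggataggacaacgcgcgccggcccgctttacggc
Xrcc5, chr1:72307171-72307420, plus strand: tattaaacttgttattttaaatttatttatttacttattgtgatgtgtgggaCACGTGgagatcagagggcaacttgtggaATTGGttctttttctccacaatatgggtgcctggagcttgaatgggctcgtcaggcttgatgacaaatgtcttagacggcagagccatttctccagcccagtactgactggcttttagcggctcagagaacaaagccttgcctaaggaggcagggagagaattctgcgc
The Rad54l window has CCAAT 50 bases upstream of the gene start, the Fanca window has it 50 and 23 bases upstream, the Atm window has its reverse complement 165 bases upstream, and the Chek1 window has none of the searched words. The Xrcc5 window has CACGTG 198 bases upstream and the reverse complement of CCAAT 169 bases upstream. No searched word was common to these 5 genes.

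Among 86 other listed genes of the same pathways, 79 reached a mean of 5 CPM in MyePro, with a median log2 ratio of -0.42. Of these, 62 were below control in KO and 17 above. By 2-fold, 13 were lower and none higher, against 7.91% and 11.3% of all genes. At 1.5-fold, 31 were lower and 2 higher, against 20.5% and 19.6% of all genes. In LSK none of 82 was past 2-fold, and the median was -0.23. The genes named next were among those lower by 2-fold in MyePro. Mre11a, the nuclease that works with RAD50 and NBN, was at 77.4 CPM in control against 34.6 CPM in KO MyePro, a log2 ratio of -1.16 (-1.32 to -0.998). Clspn, the adaptor through which ATR activates CHEK1, was at 80.0 and 36.0 CPM, and Timeless, a replication fork protein, at 141 and 47.2 CPM. Polq, the polymerase of microhomology-mediated joining, was at 28.7 and 9.17 CPM, and Lig3, a ligase that works with XRCC1, at 58.3 and 23.2 CPM.

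Genes of DNA replication and mitosis were lower beside the repair genes. In MyePro, 5 of 36 replication genes were lower by 2-fold with a median of -0.59, and 11 of 30 mitosis genes with a median of -0.88. In LSK, none of 36 replication genes was past 2-fold (median -0.29), while 6 of 30 mitosis genes were lower (median -0.69). Mki67, a marker of dividing cells, was at 284 CPM in control against 89.4 CPM in KO LSK and at 287 and 102 CPM in MyePro. The repair genes' medians of -0.30 and -0.65 thus lay near those of replication genes and above those of mitosis genes, and the part of cell division in the result was not tested.

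**Figure D3:**
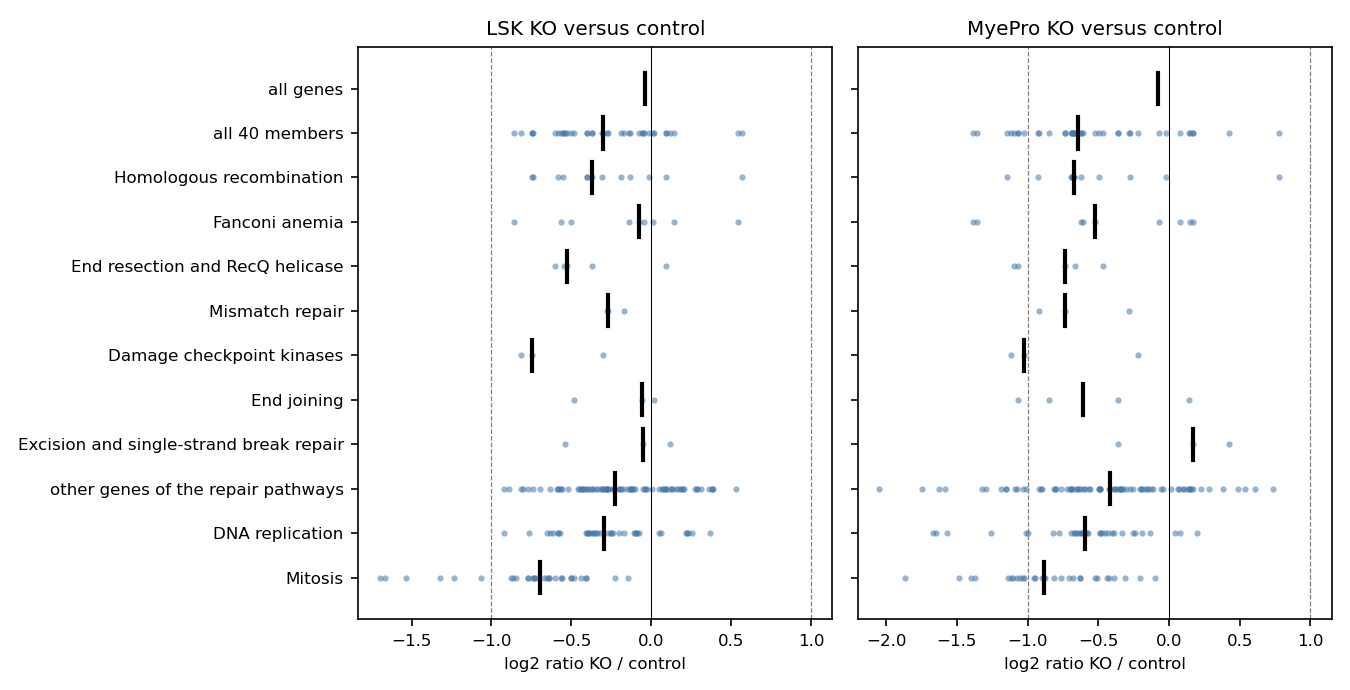
Log2 ratio of KO to control in LSK and MyePro for the repair genes by role, the other repair pathway genes, and the replication and mitosis genes, with 1 point per gene and a line at each median. The medians of repair genes, -0.30 in LSK and -0.65 in MyePro, lie below the all-gene medians of -0.04 and -0.08.

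Markers of other cell types also differed between the genotypes. Erythroid markers summed to 1852 CPM in control against 829 CPM in KO LSK (9 of 11 lower by 2-fold) and to 6199 and 939 CPM in MyePro (10 of 11 lower). Neutrophil markers were at 11.6 and 172 CPM in LSK and at 26.4 and 619 CPM in MyePro, with 3 of 3 higher in each, and 6 more of the 9 listed under a mean of 5 CPM. Megakaryocyte markers were at 606 and 867 CPM in LSK, with 3 of 8 higher and 1 lower, and at 168 and 1670 CPM in MyePro, where 7 of 8 were higher. T and NK cell markers were at 206 and 587 CPM in LSK and at 207 and 650 CPM in MyePro, with 3 of 3 higher in each and the other 8 of 11 under a mean of 5 CPM. Macrophage and dendritic cell markers were at 511 and 309 CPM in LSK, with 5 of 9 higher and 1 lower, and at 191 and 444 CPM in MyePro, with 6 of 9 higher and 1 lower. Stromal and endothelial markers were at 108 and 217 CPM in LSK and at 84.5 and 220 CPM in MyePro. Of these 7 markers, 3 reached a mean of 5 CPM in each population, of which 2 were higher in LSK and 3 in MyePro. B and plasma cell markers were at 35.2 and 8.47 CPM in LSK and at 19.8 and 4.94 CPM in MyePro. Of these 6 markers, 2 reached a mean of 5 CPM in LSK and 1 in MyePro, and 1 was lower by 2-fold in each. Apart from the erythroid and B cell lists and the macrophage sum in LSK, the sums were thus higher in KO. In the lists other than that of B and plasma cells, markers without a read in control LSK were S100a8, S100a9 and Retnlg (neutrophil), Cd3e, Cd3g and Gzma (T and NK) and Lepr (stromal). In KO LSK they were Slc4a1 (erythroid), Ltf and Mmp9 (neutrophil) and Cd3d (T cell). In control MyePro they were Camp (neutrophil), Ncr1 and Gzma (T and NK), and in KO MyePro Camp, Cd3g and Cd8a (T cell) and Lepr. The part of these cell types in the repair gene result was not tested.

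From LSK to MyePro within each genotype, the repair genes shifted little. In control cells, none of 39 was past 2-fold, where 7.21% of all genes were lower and 3.01% higher in MyePro, and the median was 0.06 beside 0.05 over all genes. The 3 highest were Fance, Msh3 and Fanca, with log2 ratios of 0.75, 0.42 and 0.36, and the 3 lowest were Atm, Xpc and Brip1, with -0.44, -0.40 and -0.29. Fance, Msh3 and Fanca were also below control in KO MyePro, as were 33 of the 40 genes in all. The same control MyePro library enters both comparisons, so a high value in it would by itself give both differences. In KO cells none was past 2-fold either, where 1.53% of all genes were lower and 3.16% higher, and the median was -0.17 beside 0.00. The 5 genes lower by 1.5-fold in KO MyePro than in KO LSK were Rad54b, Xrcc5, Atm, Fanci and Brip1, with log2 ratios of -0.79, -0.75, -0.74, -0.71 and -0.59, and none was higher. At 1.5-fold, 569 of all 10366 genes were lower (5.49%) and 876 higher. With library totals, the all-gene median of the KO comparison was -0.13 and that of the repair genes -0.30. These comparisons use the same 4 libraries as the comparisons of KO with control.

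In LT-HSC, none of the 40 genes differed between KO and control at an adjusted p under 0.05 by edgeR's quasi-likelihood test with Benjamini-Hochberg adjustment, in which every repair gene had an adjusted p of 0.999. The library labelled KO LT-HSC 1 was not below the controls in Dpy30, and the directions here are those of the labels. Over all 12844 genes tested, 2 passed (0.0156%), 4 with the transplant as a block, and none when sex-linked genes were left out. At an unadjusted p under 0.05, Fancf was lower and Xrcc1 higher, where 1.28% of all genes were lower and 1.01% higher. By DESeq2 and by limma-voom none of the 40 passed either, and the lowest adjusted p among them was 0.215 for Fancf by DESeq2. The summed level of the 40 genes was 889 and 871 CPM in the control libraries and 870 and 867 CPM in the KO libraries. The median log2 fold change was -0.05, with 24 genes below 0 and 16 above, beside 0.00 over all genes.

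Fancf stood apart most in LT-HSC. It was at 9.73 and 8.73 CPM in control 1 and 2 and at 2.52 and 1.57 CPM in KO 1 and 2, so both KO libraries were below both controls. Its log2 fold change was -2.18 ± 0.571 (SE), with an unadjusted p of 0.00661 by edgeR's quasi-likelihood test, and between -2.55 and -1.87 when each library was left out in turn. In LSK and MyePro Fancf was not below control, and the difference between populations was not tested because the libraries were made differently. The Fancf gene (chr7:51860577-51862267) is short, and its promoter window holds the word CCAAT 3 times, 118, 72 and 31 bases upstream of the start, in capitals.
Fancf, chr7:51862268-51862517, minus strand: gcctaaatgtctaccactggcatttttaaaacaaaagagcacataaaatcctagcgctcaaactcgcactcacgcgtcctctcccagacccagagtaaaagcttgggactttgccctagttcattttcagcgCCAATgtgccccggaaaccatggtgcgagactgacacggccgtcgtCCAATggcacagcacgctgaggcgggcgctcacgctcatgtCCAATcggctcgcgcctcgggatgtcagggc

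Xrcc1 was at 6.50 and 3.17 CPM in control LT-HSC and at 17.6 and 8.91 CPM in KO, a log2 fold change of 1.45 ± 0.581 (SE) with an unadjusted p of 0.0408. This value was 0.91 with library totals and lay between 0.88 (without KO 1) and 2.07 (without control 1) when 1 library was left out. Palb2 was at 14.7 and 20.1 CPM in control and at 9.66 and 9.80 CPM in KO, a log2 fold change of -0.84 ± 0.381 with an unadjusted p of 0.0629. Lig4 was at 3.28 and 4.51 CPM in control and at 1.79 and 1.07 CPM in KO, with an unadjusted p of 0.0931. In each of these 3 genes the KO libraries did not overlap the controls. They and Fancf were picked for their small p values, and of all genes 13.9% lay below both controls and 13.8% above both. Chek1 was at 22.8 and 52.3 CPM in control and at 22.2 and 20.9 CPM in KO, so control 1 lay close to the KO libraries. Its log2 fold change was -0.80 ± 0.420, and -0.07 without control 2.

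Other genes that were below control in KO MyePro differed among themselves in LT-HSC. In KO LT-HSC, Xrcc5 and Xrcc6 lay below both controls, and Bard1, Xrcc3, Nbn, Msh3 and Atr above both. Of those that overlapped between genotypes, 5 follow. Brca1 was at 32.7 and 24.5 CPM in control and at 22.7 and 26.1 CPM in KO. Atm was at 80.8 and 64.7 CPM in control and at 79.0 and 88.9 CPM in KO, with a log2 fold change of 0.21 ± 0.258. Fancd2 was at 11.5 and 21.5 CPM in control and at 14.9 and 14.2 CPM in KO. The genotypes overlapped in all 3. Rad50 was at 113 and 96.9 CPM in control and at 102 and 105 CPM in KO, and Brca2 at 59.9 and 73.6 CPM in control and at 63.8 and 65.7 CPM in KO, again with overlap.

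Of the 40 genes, both KO libraries were below both controls in 8 (Palb2, Fancf, Chek1, Xrcc5, Xrcc6, Lig4, Xpc and Ercc1) and above both in 6 (Bard1, Xrcc3, Nbn, Msh3, Atr and Xrcc1), against 13.9% and 13.8% of all genes. By role, 3 of 4 end joining genes lay below, and of the 3 excision genes 2 lay below and 1 above. Xrcc6 was at 17.9 and 16.8 CPM in control and at 14.2 and 12.7 CPM in KO, and Xpc at 12.5 and 15.3 CPM in control and at 9.88 and 9.48 CPM in KO. Of 79 other pathway genes tested, none had an unadjusted p under 0.05 by edgeR. Erythroid markers summed to 455 and 279 CPM in control and to 231 and 230 CPM in KO LT-HSC, and the part of this in the values above was not tested.

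**Figure D4:**
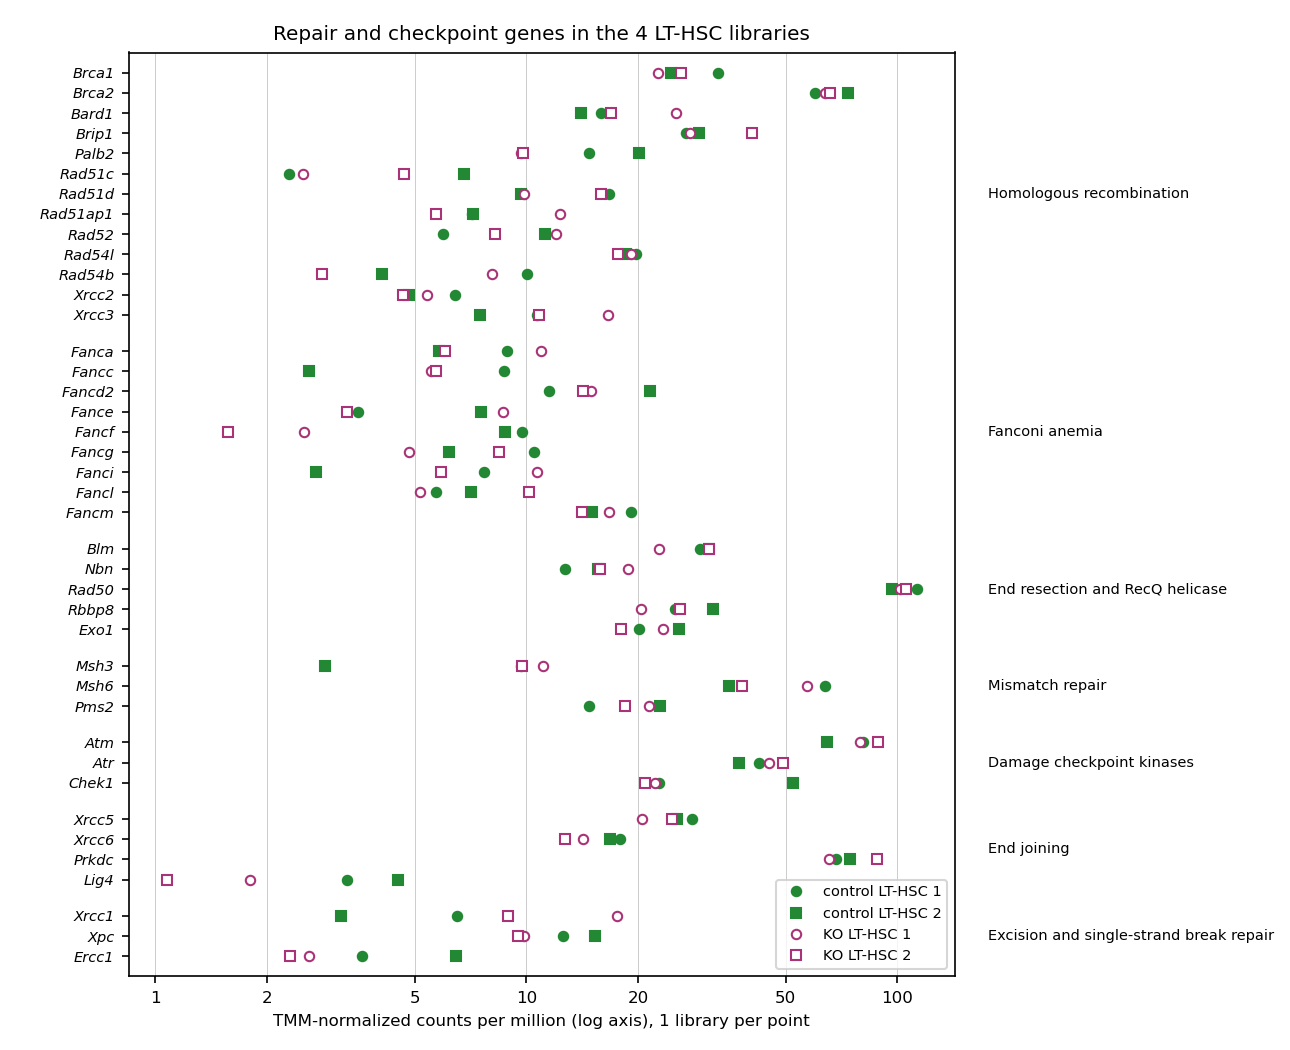
Level of each of the 40 genes in the 4 LT-HSC libraries, in TMM-normalized CPM on a log axis, with 1 point per library. Control and KO points are intermixed for 26 genes, and Fancf shows the widest gap, with KO points at 2.52 and 1.57 and control points at 9.73 and 8.73.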

How the data were processed

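The deposited values were raw counts per gene, 1 table per library, made by the authors. Per the submitters' processing notes, tools named for the series include CASAVA 1.8.4, TopHat2, Picard 1.126, HTSeq 0.6.0 and DESeq 3.0 with build mm10. Which tool did what, the annotation, and whether strand was used in counting, is not given in the sources used here. PolyA selection took 2 rounds, per the labels' protocols, and only LT-HSC RNA was amplified, which can alter relative levels, so the 2 sets of libraries were normalized apart. Entries that name no gene (36.4% to 52.3% of the totals in the tables), spike-ins and an entry DPY30-SPKIG were left out. The 6 ChIP-seq samples were not analysed here.

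For LSK and MyePro, log2 ratios used TMM-scaled CPM with a prior count of 2, and calls were counted over genes averaging 5 CPM or more. Scaling factors came from genes averaging 1 CPM or more. Intervals came from the conditional binomial distribution of the counts. LT-HSC genes that reached 1 CPM in 2 or more of the 4 libraries were tested with edgeR 4.0.16 (R 4.3.3), by the two-sided quasi-likelihood test with Benjamini-Hochberg adjustment over all genes and a threshold of 0.05. Labels tie libraries of the same number to 1 transplant, so they are paired, and a correlation of 0.28 over genes was found between the deviations of paired libraries from their group means. The fit had no block, and a fit with the block was an alternative. DESeq2 1.42.0 and limma 3.58.1 (voom), other scalings, filters and prior counts, and leaving out each LT-HSC library were also tried. The fit was tested on simulated data. Called genes that were in truth unchanged exceeded the nominal rate in the first run, with a separate dispersion for each gene. The simulation was then revised, and the fit to the real counts was not.

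The 40 genes and the lists beside them were chosen with earlier results of these data known. Values in every library are given for the highest and lowest 3 repair genes of each comparison, those past 2-fold, the most abundant of each role, Brca1, Brca2, Atm, Chek1 and the 5 smallest p in LT-HSC. Other genes named were chosen after their values were seen. Pathway gene symbols were matched through RefSeq synonyms where older.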

Additional observations from a re-analysis of the deposited data

How the results depend on the processing

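The LSK and MyePro ratios have no replicates, so the settings below show processing effects only. Lowering the threshold from 2-fold to 1.5-fold moved the count of repair genes lower in KO from 0 to 7 in LSK and from 8 to 23 in MyePro, and that of genes higher in MyePro from 0 to 1. It moved those higher in control MyePro against LSK from 0 to 1 and those lower in KO MyePro against LSK from 0 to 5. With a minimum mean of 20 CPM, 51.8% of all MyePro genes past 2-fold were lower, against 41.1%, and 8 repair genes were still lower. With library totals, 7 repair genes were lower in MyePro, because Chek1 was at -0.99, the log2 ratio of Msh6 in LSK was -0.14, and 48.8% instead of 32.6% of all genes past 2-fold were lower in KO MyePro against LSK.

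In LT-HSC, no repair gene passed the threshold under any setting tried. Over all genes, 2 passed by edgeR, and 4 passed with library totals, with no filter, with at least 5 CPM and with the transplant number as replicate block. DESeq2 gave 14, limma-voom 1, and 0 passed without mitochondrial ribosomal RNA and without sex-linked genes. With 1 library left out, the lone library of a genotype is assumed to vary like the others, and 0 to 5 genes passed. The block changed no other call. Library totals moved the median over all genes from 0.00 to -0.35 and that of the repair genes from -0.05 to -0.43. The log2 fold change of Atm was -0.12 with library totals and that of Rad50 was 0.0011 with at least 5 CPM, both of the opposite sign to the value reported. The sign also turned when 1 library was left out for Brca1 (-0.41 to 0.0012), Brca2 (-0.18 to 0.12), Fancd2 (-0.56 to 0.35), Rad50 (-0.12 to 0.10) and Msh6 (-0.41 to 0.44). The causes were not tested, and none of these values was past the threshold.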
